A study of Mus musculus with 56 samples.

Results

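Neural stem cells grown from the mouse cerebellum and transduced with N-myc were compared with the same kind of cells transduced with GFP (green fluorescent protein) as a control. The 5 arrays were picked by their titles out of 56 in the series: 2 of cells carrying N-myc(T58A) and 3 of cells carrying GFP. T58A is a mutation that stabilises the N-myc protein. One N-myc array and one GFP array were of cells from the cerebellum of embryonic day 16 (E16C). One N-myc array and 2 GFP arrays were of cells from the cerebellum of postnatal day 0 (P0C), of which one was GFP-sorted and one unsorted. All cells had the FVB/N background, were cultured and had not been transplanted. The labels do not say whether the N-myc cells were sorted, what drove the transgenes, or whether the sorted and unsorted cells were from separate cultures, so any spread between arrays may be technical. The rest of the series was of 9 orthotopic tumours grown from such N-myc cells, cells grown out of tumours, one forebrain (P0F) GFP culture with no N-myc partner, and medulloblastomas and normal cerebella of another mouse model. The comparison asks what the oncogene does to the transcripts of cerebellar stem cells before they form a tumour.

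N-myc, encoded by Mycn, is a transcription factor of the Myc family that pairs with Max and binds the E-box sequence. It drives ribosome production, nucleotide synthesis and cell division in the progenitors of the developing cerebellum, where sonic hedgehog signalling normally keeps it up. Amplified or stabilised N-myc is a known driver of medulloblastoma and neuroblastoma. Cerebellar stem cells in culture express radial glial genes and can form neurons, astrocytes and oligodendrocytes.

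Levels are log2 values and differences are in log2 units, N-myc minus GFP, unless a fold is named. Values are given in the order E16C N-myc and P0C N-myc, then E16C GFP, P0C GFP sorted and P0C GFP unsorted. A level under 6.30, percentile 25 of all values, may be background. Of 15224 genes, 11635 were above that level in at least 2 of the arrays and were tested. Rises and falls are spoken of only for genes that passed an adjusted p of 0.05.

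Mycn was higher in both N-myc cultures than in all 3 GFP cultures. Its level was 9.29 and 9.12 with N-myc, against 7.19, 6.27 and 6.75 with GFP. The difference was 2.39 (SE 0.26), or 5.24-fold, with a limma adjusted p of 0.177 over all genes tested. It was 2.10 in E16C and 2.61 in P0C. A cell type tag of the E16C N-myc array names GFP-transduced cells, against its title and source name, and the Mycn level goes with the title. Which parts of the construct the Mycn probe reads is not known here. In the 18 arrays of the transplant series, fitted with a mean for each group, the mean difference over both origins passed the test (2.35, limma adjusted p = 0.0184). Mycn stood at 7.70 in the forebrain GFP culture, and the 6 cerebellar tumours grown from such cells ranged from 8.51 to 9.39. The N-myc cultures thus lay within the range of those tumours and above each GFP culture measured.

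Differences between the arrays bear on the results below. Over the genes tested, the 2 N-myc arrays and the E16C GFP array correlated at 0.941 to 0.959 with each other. The 2 P0C GFP arrays correlated at 0.987 with each other but at only 0.836 to 0.875 with the other 3, so they stand apart. They also stood apart from the forebrain GFP culture (0.841 and 0.858), which correlated at 0.932 with the E16C GFP array. E16C and P0C GFP cultures differed at least 2-fold in 2066 genes, against 546 between the 2 N-myc cultures. The cultures also differed in sex-linked transcripts: the Y-linked Eif2s3y was at 9.37 and 9.74 with N-myc and at 4.97, 9.03 and 8.46 with GFP, so the E16C GFP array lacked it. The E16C comparison does not use the P0C GFP arrays, and the P0C comparison does not use the E16C GFP array. For that reason every group of genes is given below by origin.

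The stem cell markers Sox2, Vim, Fabp7 and Nes were well above background in all 5 cultures, but Prom1, given last, was not. Sox2, a factor that keeps neural stem cells undifferentiated, was at 11.72, 11.96, 11.90, 11.97 and 11.81, with the groups intermixed. Vim, an intermediate filament of radial glia, was at 13.465 or more in each. Fabp7, the lipid carrier of radial glia, was at 13.72 and 13.44 with N-myc and at 13.12, 11.93 and 11.49 with GFP. Nes (nestin) was at 9.89 and 10.22 against 9.73, 8.90 and 8.85. Neither Fabp7 (difference 1.24) nor Nes (0.84) passed the test (limma adjusted p = 0.385 and 0.405), and both had the P0C GFP arrays lowest. Single genes picked for 3 cell types from outside the neural lineage were at or near background. The pan-leukocyte gene Ptprc lay between 5.66 and 5.90, the endothelial gene Cdh5 between 5.97 and 6.73, and the fibroblast gene Dcn (decorin) between 5.84 and 6.74. Other genes of these types were above it. Of the genes measured, 7 of 14 for microglia and macrophages, 9 of 12 for endothelium and pericytes and 7 of 12 for fibroblasts and meninges were tested. The means of the whole lists, over their tested genes, were higher, from 6.49 to 7.57 for microglia and macrophages, 6.42 to 7.05 for endothelium and pericytes and 7.08 to 7.597 for fibroblasts and meninges. The P0C GFP unsorted array was the highest and the P0C N-myc array the lowest for all 3 lists. Prom1, a surface marker of neural stem cells, was at 8.57 in the P0C N-myc culture alone and between 5.34 and 5.87 in the other 4.

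**Figure D1:**
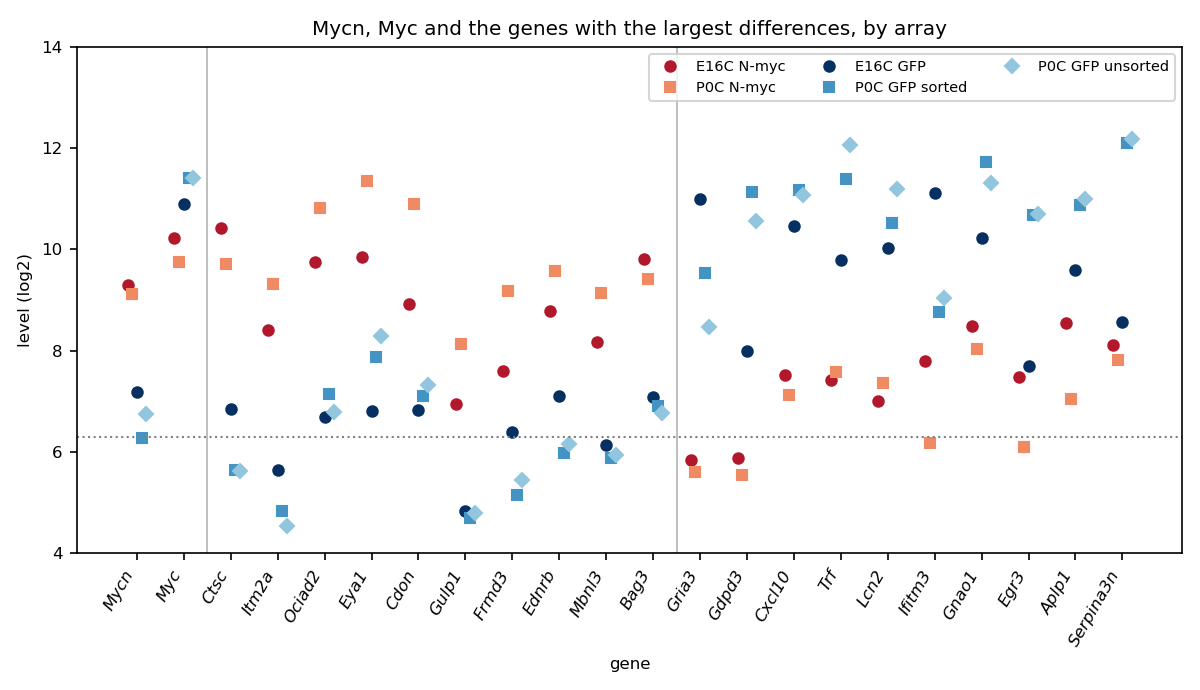
Level (log2, vertical axis) of Mycn, Myc and the genes with the largest differences (horizontal axis) in each of the 5 arrays, 1 point an array. The dotted line is the level of 6.30, and the vertical lines part Mycn and Myc, the 10 genes higher with N-myc and the 10 lower. N-myc points (red and orange) lie beyond all 3 GFP points (blue shades) for every gene drawn.

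No gene passed the test of N-myc against GFP over both origins. In limma, with origin as a term, 0 of 11635 genes (0%) had an adjusted p under 0.05, the smallest being 0.0821, while 1428 had an unadjusted p under 0.05. The residual spread rests on 2 degrees of freedom. Both N-myc arrays lay above all GFP arrays in 1560 genes (13.4%) and below them in 1811 (15.6%). When the sorted and unsorted P0C GFP arrays were averaged to 1 value, 11 genes rose and 8 fell, Mycn among the 11. That fit has fewer residual degrees of freedom still. Its residual spread is only the disagreement between the E16C and P0C differences, so genes pass there where these are alike. The same limit holds wherever that fit is named below.

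A small set of genes differed at least 2-fold the same way in both origins, a set counted after its values were seen. There were 45 higher (0.387% of the genes tested) and 70 lower (0.602%) with N-myc. The E16C pair alone differed at least 2-fold in 212 genes higher (1.82%) and 183 lower (1.57%). The P0C comparison gave 1241 higher (10.7%) and 1180 lower (10.1%). The genes higher in both were 21.2% of those higher in E16C and 3.63% of those higher in P0C, and 43 others were higher in E16C and lower in P0C, 20.3% of those higher in E16C. The genes lower in both were 38.3% of the E16C set and 5.93% of the P0C set, and 33 others were lower in E16C and higher in P0C. The 2 differences share no array, and over all genes tested their Pearson correlation was 0.0386, a description across genes, which are not independent.

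**Figure D2:**
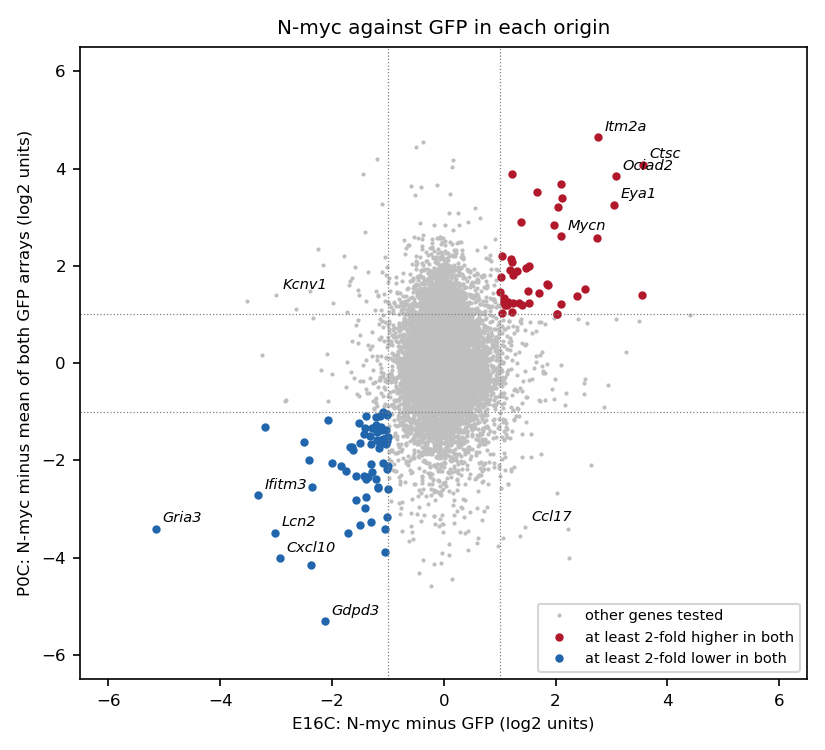
Difference of N-myc and GFP in E16C (horizontal axis, log2 units) and in P0C (vertical axis, log2 units, against the mean of both GFP arrays), 1 point for each of the 11635 genes tested. Dotted lines mark 2-fold, and red and blue mark the 45 genes higher and the 70 lower in both origins. Most other points spread further along the P0C axis than along the E16C axis.

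Among the genes higher with N-myc, the largest measured difference was in Ctsc, which encodes the lysosomal protease cathepsin C. Ctsc was at 10.43 and 9.71 with N-myc and at 6.86, 5.65 and 5.61 with GFP. Both N-myc levels were above all GFP levels, with a difference of 3.86 (SE 0.23) and the lowest limma adjusted p of all genes, 0.0821. Both P0C GFP levels were below 6.30, so the size may be understated and its rank among genes is uncertain. The difference passed with the P0C GFP arrays averaged (limma adjusted p = 0.00122). Itm2a, an integral membrane protein, was at 8.41 and 9.33 against 5.64, 4.83 and 4.54, a difference of 3.84 (SE 0.45). Its GFP levels were all below 6.30, so the same limit holds. Eya1, a phosphatase and transcriptional coactivator of organ development, was at 9.85 and 11.35 against 6.80, 7.87 and 8.30 (3.17, SE 0.24). Cdon, a cell-surface co-receptor for sonic hedgehog, was at 8.93 and 10.91 against 6.83, 7.11 and 7.32 (3.01, SE 0.40). The P0C N-myc culture was the highest for Eya1 and Cdon and the groups did not overlap for either.

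Ociad2 was at 9.76 and 10.82 with N-myc against 6.68, 7.15 and 6.80 with GFP, a difference of 3.52 (SE 0.28). Bag3, a co-chaperone of Hsp70 in protein quality control, was at 9.82 and 9.41 against 7.08, 6.92 and 6.77, with 6.69-fold in E16C and 5.92-fold in P0C. Ednrb, the endothelin B receptor of radial glia and neural crest, was at 8.78 and 9.58 against 7.11, 5.98 and 6.16 (2.72, SE 0.44), with the P0C GFP levels at background. Gulp1, an adaptor for engulfment of dying cells, was at 6.95 and 8.14 against 4.84, 4.69 and 4.80, which are background levels. The RNA-binding splicing regulator Mbnl3 differed by 2.71 and the membrane-cytoskeleton protein Frmd3 by 2.74. Frmd3 was at 7.61 and 9.18 with N-myc, against 6.38 in E16C GFP and background levels of 5.15 and 5.44 in P0C GFP. Further genes of the set, picked after their values were seen, were the caveolar coat gene Cav1 (2.46), the serine protease Prss23 (2.26), the calcium channel subunit Cacna2d1 (2.32), the glycoprotein podoplanin Pdpn (1.56) and the axon guidance genes Efna5 (1.71) and Robo2 (1.44).

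The genes lower with N-myc were led by Gria3, a subunit of AMPA glutamate receptors. Gria3 was at 5.85 and 5.60 with N-myc, both at background, and at 10.99, 9.54 and 8.47 with GFP. The difference was -4.15 (SE 0.52), at -5.14 in E16C and -3.40 in P0C, and it passed with the P0C GFP arrays averaged (limma adjusted p = 0.00122). As the N-myc levels are at background, its size may be understated. Gdpd3, a lysophospholipase D, was at 5.89 and 5.54 against 8.00, 11.13 and 10.56. The groups did not overlap, but the P0C GFP arrays were the highest, and the difference was -2.12 in E16C and -5.31 in P0C. Trf (transferrin, the iron carrier) was at 7.41 and 7.58 against 9.79, 11.39 and 12.06 (-3.39, SE 0.47). Gnao1, the alpha subunit of the neuronal G protein Go, was at 8.50 and 8.03 against 10.22, 11.72 and 11.32 (-2.73, SE 0.44).

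Several of the largest differences below GFP were in genes of inflammation and interferon. Cxcl10, an interferon-induced chemokine, was at 7.53 and 7.12 with N-myc and at 10.46, 11.17 and 11.08 with GFP (-3.55, SE 0.31), or 7.63-fold lower in E16C and 16.1-fold lower in P0C. Lcn2, the iron-siderophore carrier of reactive astrocytes, was at 7.01 and 7.37 against 10.03, 10.53 and 11.19 (-3.29, SE 0.29). Ifitm3, an interferon-induced protein that blocks virus entry, was at 7.80 and 6.18 against 11.12, 8.76 and 9.04, with the E16C GFP array the highest. All 3 had a limma adjusted p of 0.0875, and all 3 passed with the P0C GFP arrays averaged. Serpina3n, another reactive astrocyte gene, was at 8.11 and 7.81 against 8.56, 12.10 and 12.17. For Serpina3n the difference was -4.33 in P0C and only -0.45 in E16C.

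The interferon and antigen presentation list went the same way in P0C, and part of it in E16C. Of 15 members tested, 11 had both N-myc arrays below all GFP arrays, against the 15.6% of all genes given above, and none passed the test over both origins. In the 18-array model 2 fell in P0C, against 4% of all genes, namely Tap2 and Tapbp (-1.86 and -2.07), which serve peptide loading of MHC class I. Neither passed without the sorted or without the unsorted P0C GFP array. The median difference was -0.95, against -0.034 over all genes tested. It was -0.13 in E16C, where 4 members were higher, and -1.64 in P0C, where 0 were. Rsad2 (viperin, an antiviral enzyme) was at 7.14 and 7.37 against 8.43, 9.40 and 9.80. Irf1, the factor that carries the interferon gamma response, was at 6.93 and 7.19 against 7.97, 8.97 and 8.73. These 2 were at least 2-fold lower in both origins. Tap1, the peptide transporter that loads MHC class I, was at 7.13 and 6.43 against 7.69, 8.23 and 8.47. Ifit1, an antiviral interferon target, was blank in both N-myc arrays and at 8.14, 9.73 and 9.32 with GFP, so it was not tested. In the same direction, and picked after their values were seen, were the chemokine Ccl2 (-1.71), the inflammatory caspase Casp1 (-2.17), the RNA sensor Ifih1 (-1.64), the endotoxin receptor Tlr4 (-1.56) and the necroptosis effector Mlkl (5.65-fold lower in E16C). Of 7 microglia and macrophage genes tested, 2 lay below (15.6% of all genes did). In E16C 4 of the 7 were higher with N-myc (median 0.004), and in P0C 0 were (median -0.77). Ptprc, Itgam and Adgre1 of that list were at background in each array. Cd68, a lysosomal gene of macrophages, was at 8.58 and 7.94 against 8.40, 10.74 and 11.36, so it was high in the P0C GFP arrays only. What part such cells had in the P0C values was not tested.

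In the forebrain GFP culture many of these genes stood nearer to the N-myc cultures than to the cerebellar GFP cultures. Of the 10 genes with the largest differences above GFP, 9 did so, and of the 10 below, 6 did. Ctsc was at 10.43 there, level with the E16C N-myc culture (10.43), and Itm2a at 9.36, level with the P0C N-myc culture (9.33). Ednrb was at 11.75, above both N-myc cultures. Cxcl10 was at 6.64 and Lcn2 at 5.75, below both N-myc cultures. Gria3 (10.46), Gnao1 (10.77) and Eya1 (8.63) stood with the cerebellar GFP cultures. Of the 45 genes higher in both origins, 35 stood nearer to the N-myc mean there, and of the 70 lower 48 did. For standing nearer, no share over all genes is given here, so those counts have no reference. The forebrain culture exceeded all 3 cerebellar GFP arrays in 41 of the 45, against 23.6% of all genes. It was below all 3 in 56 of the 70, against 35.6%. Those genes were chosen for cerebellar GFP levels that lie to one side, which any further array is then likely to exceed, so the counts are a description. The forebrain culture carried GFP, so these levels were measured there in cells without the N-myc transgene.

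**Figure D3:**
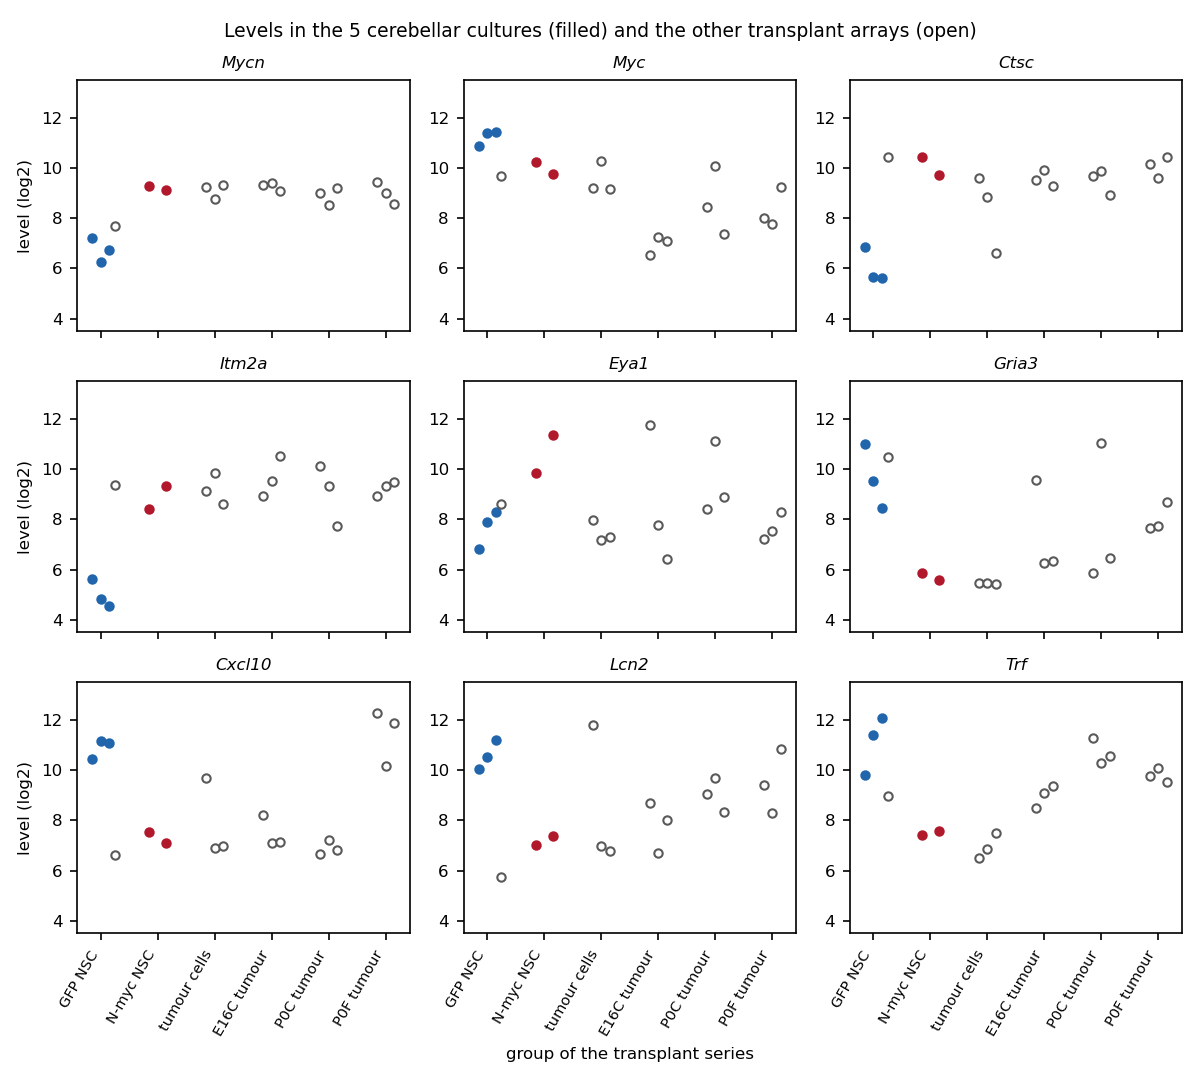
Level (log2, vertical axes) of 9 genes in the 5 cerebellar cultures (filled, blue GFP and red N-myc) and in the other arrays of the transplant series (open), by group, 1 point an array. The open point beside the GFP cultures is the forebrain GFP culture, which lies with the N-myc cultures for Ctsc, Itm2a, Cxcl10 and Lcn2 and with the GFP cultures for Gria3.

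In the Myc network Mycn and Myc differed in opposite directions. Myc, the paralog of Mycn, was at 10.22 and 9.76 with N-myc and at 10.89, 11.41 and 11.41 with GFP. The difference was -1.23 (SE 0.29, limma adjusted p = 0.364), -0.67 in E16C and -1.65 in P0C. Mxd1, a partner of Max that represses Myc targets, was at 8.25 and 8.90 against 8.91, 10.20 and 10.20. Mxi1, of the same family, was at 8.17 and 7.70 against 8.04, 9.63 and 9.79. In the 18-array model Mxd1 and Mxi1 fell by 1.30 and 2.02 in P0C (limma adjusted p = 0.0161 and 0.025). Neither passed without the sorted or without the unsorted P0C GFP array. Mxi1 was 0.13 higher in E16C. Max itself was at 10.56 and 10.93 against 11.18, 10.63 and 10.40, with no order between the groups.

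The E-box that Myc and Max bind was searched in the upstream windows of the genes tested, as the 6 letters CACGTG, which read the same on both strands. Windows were the 250 bases before the first listed start of each gene in RefSeq (build GRCm38.p6), and 9364 of 11635 genes had one. The motif was in 792 of them (8.5%). It was in 5 of 38 windows of genes higher in both origins (13.2%) and in 7 of 53 windows of genes lower in both (13.2%). Among the lists searched it was in 3 of 16 windows of nucleotide synthesis, 1 of 18 of ribosome biogenesis and 5 of 17 of the mitochondrial ribosome and import. It was in 0 of 18 of DNA replication, 0 of 12 of RNA polymerase I and III and 0 of 13 of interferon and antigen presentation. Of the 10 genes with the largest differences above GFP, none with a window here held it. The 5 windows of the genes higher in both origins that hold it are shown, with that of Cdk4, which holds 4, because Cdk4 is a known Myc target and did not differ in E16C. Each is 5′ to 3′ on the strand of the gene, with the E-box in capitals.
Lfng (chr5:140607091-140607340, plus strand): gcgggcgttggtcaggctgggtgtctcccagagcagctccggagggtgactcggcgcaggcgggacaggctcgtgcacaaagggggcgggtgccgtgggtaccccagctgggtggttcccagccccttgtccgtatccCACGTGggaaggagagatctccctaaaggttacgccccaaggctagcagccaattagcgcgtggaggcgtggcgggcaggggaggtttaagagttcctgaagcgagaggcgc
Pdpn (chr4:143299565-143299814, minus strand): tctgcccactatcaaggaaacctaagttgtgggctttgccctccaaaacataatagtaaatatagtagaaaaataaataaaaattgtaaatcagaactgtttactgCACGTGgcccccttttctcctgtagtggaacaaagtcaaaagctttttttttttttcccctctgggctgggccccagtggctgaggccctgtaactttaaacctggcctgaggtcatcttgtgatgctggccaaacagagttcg
Robo2 (chr16:75447294-75447543, minus strand): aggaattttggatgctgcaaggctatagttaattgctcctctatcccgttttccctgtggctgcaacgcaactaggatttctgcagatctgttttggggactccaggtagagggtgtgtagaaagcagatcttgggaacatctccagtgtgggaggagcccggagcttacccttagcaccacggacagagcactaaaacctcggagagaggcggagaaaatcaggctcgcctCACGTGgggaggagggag
Cbs (chr17:31637206-31637455, minus strand): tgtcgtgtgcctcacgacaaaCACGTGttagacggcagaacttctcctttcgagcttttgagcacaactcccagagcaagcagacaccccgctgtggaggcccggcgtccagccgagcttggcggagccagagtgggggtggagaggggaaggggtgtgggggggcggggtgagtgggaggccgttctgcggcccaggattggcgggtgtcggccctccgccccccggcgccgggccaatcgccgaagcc
Arhgef4 (chr1:34677932-34678181, plus strand): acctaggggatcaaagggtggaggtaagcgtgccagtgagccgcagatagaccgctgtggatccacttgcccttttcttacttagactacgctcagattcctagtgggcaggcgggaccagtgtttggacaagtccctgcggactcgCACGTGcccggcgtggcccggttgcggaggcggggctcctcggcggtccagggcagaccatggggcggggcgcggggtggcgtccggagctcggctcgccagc
Cdk4 (chr10:127063285-127063534, plus strand): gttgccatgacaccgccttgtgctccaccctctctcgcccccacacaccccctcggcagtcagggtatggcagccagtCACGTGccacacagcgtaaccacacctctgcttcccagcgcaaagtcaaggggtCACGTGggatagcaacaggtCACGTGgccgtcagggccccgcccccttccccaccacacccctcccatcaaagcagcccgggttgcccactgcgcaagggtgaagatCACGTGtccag
A match is a description of these letters and not a bound site. Lfng, a glycosyltransferase that modifies Notch, was at 11.75 and 11.29 with N-myc and at 10.74, 9.84 and 9.82 with GFP. Cbs, an enzyme of cysteine synthesis, was at 7.78 and 9.26 against 6.71, 7.83 and 8.02, so its groups overlapped. Cdk4, the kinase that opens the way through G1 with cyclin D, was at 13.23 and 13.35 against 13.26, 12.32 and 12.40.

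Genes of ribosome production were higher with N-myc in P0C and level in E16C. Of 21 ribosome biogenesis genes tested, 20 were higher in P0C (median 1.18) and 6 in E16C (median -0.12). The 18-array model called 9 of them higher in P0C, against 4.35% of all genes, and none in E16C. These P0C calls rest on having both P0C GFP arrays: without the sorted one or without the unsorted one, 0 of the 21 were called, and over all genes the 506 higher calls became 51 and 24. The list mean was 10.43 and 10.64 with N-myc and 10.53, 9.41 and 9.37 with GFP, so only the P0C GFP arrays lay low. Ncl (nucleolin) was at 12.23 and 12.66 against 12.45, 11.67 and 11.40. Npm1 (nucleophosmin) was at 12.06 and 12.62 against 12.52, 12.04 and 11.82, and Nolc1, a nucleolar chaperone, at 11.27 and 11.01 against 11.36, 10.46 and 10.47. In each of these the E16C GFP array lay among the N-myc levels or above them. Bop1, of the complex that processes large subunit RNA, rose 4.56-fold in P0C (limma adjusted p = 0.0315, 18-array model). The RNA polymerase I subunits Polr1a and Polr1e rose 3.72-fold and 3.79-fold in P0C and were within 0.04 of GFP in E16C. No member of the polymerase I and III list passed in P0C without the sorted or without the unsorted P0C GFP array. That list as a whole had a median of 0.94 in P0C and -0.04 in E16C. The mitochondrial ribosome and import list had 0.88 and -0.07, and the translation and tRNA charging list 0.96 and -0.05.

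Nucleotide synthesis had the second largest median of the lists in P0C, 1.73, with 17 of 17 members higher, and 0.04 in E16C, with 10 of 17 higher. In P0C 10 of them were called, against 4.35% of all genes, then 1 without the sorted and 0 without the unsorted P0C GFP array. In 9 of the 17 the N-myc arrays lay above all GFP arrays, against 13.4% of all genes. Cad, which starts pyrimidine synthesis and is a textbook Myc target, was at 9.97 and 10.17 with N-myc and at 9.49, 8.26 and 8.30 with GFP. It was higher in both origins, by 0.48 in E16C and 1.89 in P0C, and rose in the P0C test (limma adjusted p = 0.00613). Tyms (thymidylate synthase) was at 10.28 and 10.57 against 10.32, 8.12 and 8.13, level in E16C and 5.43-fold up in P0C. The purine enzymes Gart, Adsl and Atic rose in P0C by 2.12, 2.36 and 1.73, and the largest of their differences in E16C was -0.21, for Adsl. Among polyamine genes, Odc1, the rate-limiting enzyme and a known Myc target, was at 11.38 and 11.03 against 11.13, 10.56 and 10.75, a difference of 0.32 (SE 0.21). Srm (spermidine synthase) was at 12.51 and 12.86 against 12.33, 10.85 and 10.86. Phgdh, which opens serine synthesis, was at 10.51 and 10.59 against 9.99, 9.09 and 8.93. All 3 levels of GFP lay below both of N-myc for Cad, Srm and Phgdh.

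**Figure D4:**
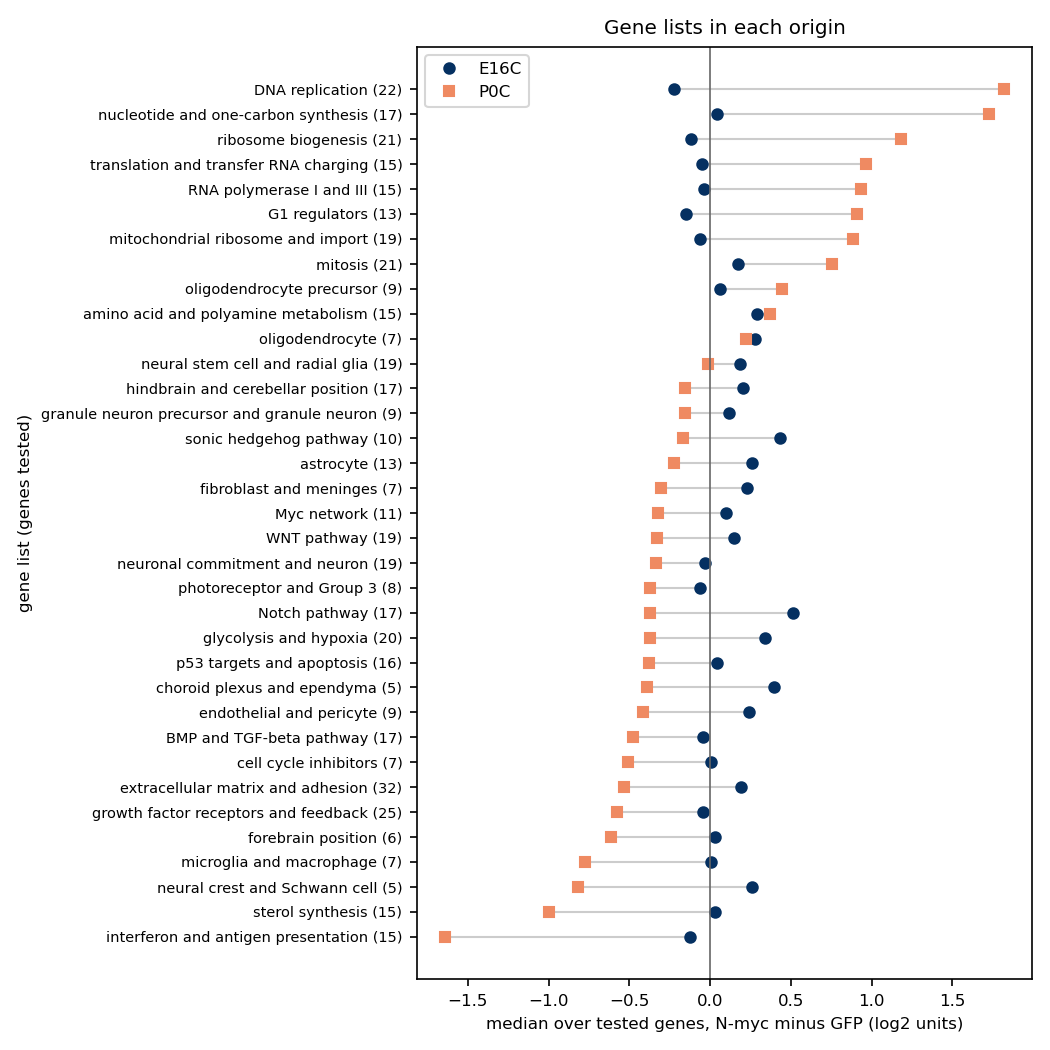
Median difference over the tested genes of each of 35 lists (horizontal axis, log2 units, N-myc minus GFP) in E16C (circles) and in P0C (squares), with the number of genes tested beside each list name (vertical axis). The squares spread from -1.64 for interferon and antigen presentation to 1.82 for DNA replication, while every circle lies between -0.22 and 0.51.

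Of the 35 lists, DNA replication had the widest gap between the origins. All 22 genes tested were higher with N-myc in P0C, with a median of 1.82. The 18-array model called 14, against 4.35% of all genes, but 2 without the sorted and 0 without the unsorted P0C GFP array. In E16C 3 of 22 were higher, with a median of -0.22. The list mean was 10.23 and 10.31 with N-myc and 10.51, 8.65 and 8.65 with GFP. Prim1, the primase that starts new strands, was at 9.95 and 10.41 against 10.48, 7.85 and 7.77. The helicase subunit Mcm3 was at 10.41 and 10.72 against 10.88, 8.61 and 8.72. In both the E16C GFP culture was the highest and the P0C GFP cultures were the lowest. The test of the difference between origins called none of the 22.

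Mitotic genes lay more evenly. In 10 of 21 tested both N-myc arrays were above all GFP arrays, against 13.4% of all genes, with medians of 0.17 in E16C and 0.76 in P0C. Cdc20, which activates the anaphase-promoting complex, was at 11.00 and 11.13 against 10.10, 9.62 and 9.44. That was 1.87-fold higher in E16C and 3.03-fold in P0C. Mki67, the proliferation antigen, was at 9.92 and 9.77 against 10.17, 9.37 and 9.32, and Top2a (topoisomerase II alpha) at 11.17 and 11.38 against 11.69, 10.87 and 10.74. Neither of these ordered the groups. Ccnb2 (cyclin B2) was at 11.17 and 11.01 with N-myc and at 10.82 and 10.72 in the P0C GFP arrays, but at 7.91 in the E16C GFP array alone. The mean of the mitosis list was 10.19 there, above both P0C GFP arrays.

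**Figure D5:**
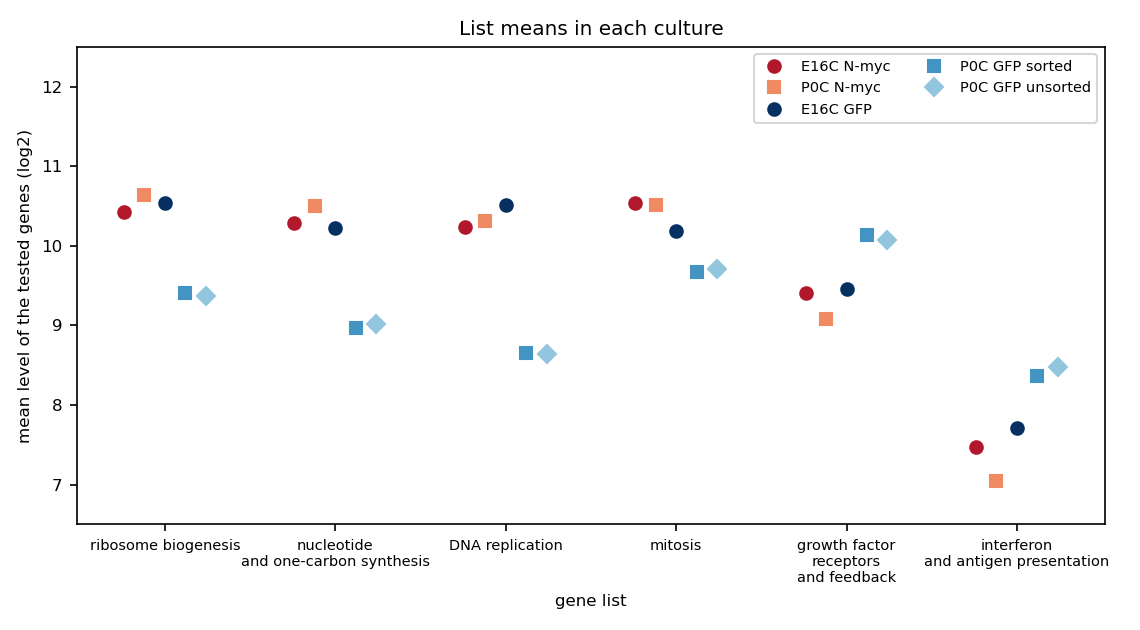
Mean level (log2, vertical axis) of the tested genes of 6 lists (horizontal axis) in each of the 5 cultures, 1 point an array. For ribosome biogenesis, nucleotide synthesis and DNA replication the E16C GFP array (dark blue circle) lies with the N-myc arrays and both P0C GFP arrays lie below, and for the last 2 lists the P0C GFP arrays lie above.

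Among G1 regulators, Ccnd2 (cyclin D2) was at 12.53 and 12.15 against 12.01, 11.47 and 11.22, a difference of 0.68 (SE 0.22). Ccnd1 (cyclin D1) was at 13.00 and 13.31 against 13.37, 12.34 and 12.03. Of the inhibitors, Cdkn1a (p21), which Myc is known to repress, was at 7.71 and 8.60 against 9.78, 9.19 and 9.59. It was the inhibitor whose groups did not overlap, at -2.07 in E16C and -0.79 in P0C (limma adjusted p = 0.385 over both). Cdkn2a, the locus of p16 and Arf, was at 10.28 and 9.91 against 10.58, 9.12 and 8.86. Cdkn1b (p27) was at 9.42 and 9.74 against 9.42, 11.20 and 11.26, and fell by 1.49 in P0C (limma adjusted p = 0.0315, 18-array model). Cdkn1b did not pass without the sorted or without the unsorted P0C GFP array. Of 16 p53 targets and apoptosis genes tested, 1 lay above and 2 below GFP, against 13.4% and 15.6% of all genes. In P0C 3 fell, against 4% of all genes, namely the death receptor Fas (-2.71), Trp53inp1 (-1.88) and Pmaip1 (-1.52), and 0 did with one P0C GFP array left out.

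Of the growth factor receptor and feedback list, 5 of 25 genes fell in P0C, against 4% of all genes, and 4 of these were immediate early transcription factor genes, higher in the P0C GFP arrays than in the other 3. With one P0C GFP array left out, 1 of the 25 fell. Junb was at 8.14 and 7.50 with N-myc and at 8.19, 11.59 and 11.65 with GFP. Egr1 was at 9.78 and 8.55 against 9.34, 12.42 and 12.36, and Fos at 7.39 and 7.32 against 8.14, 10.86 and 10.71. These 3 genes, which growth factors or stress switch on within minutes, fell in P0C, with differences of -4.12, -3.84 and -3.46 (limma adjusted p = 0.00187, 0.0193 and 0.0488, 18-array model). In E16C the differences were -0.04, 0.44 and -0.75. Fosl2, of the Fos family, was at 7.84 and 8.16 against 8.02, 11.38 and 11.25 and also fell in P0C (-3.15, limma adjusted p = 0.0114). Jun, at 9.50 and 10.24 against 9.97, 10.95 and 10.69, and Fosl1, at 7.17 and 7.04 against 7.21, 7.67 and 8.02, did not pass. Dusp4, a phosphatase that curbs MAP kinases, was the fifth gene that fell (-2.24). Egr3 was at 7.48 and 6.10 against 7.70, 10.68 and 10.71. The stress genes Gadd45b (-1.94) and Txnip (-2.47), by contrast, were lower in both origins. Txnip, an inhibitor of thioredoxin and glucose uptake, was at 7.78 and 9.53 against 10.14, 12.16 and 12.01. Of the receptors, Egfr was at 10.99 and 11.07 against 10.70, 10.55 and 10.60, above in both but by 0.41, and Met was at 6.16 and 5.81 against 6.18, 9.33 and 8.90. Over the list 1 of 25 lay above and 7 below, against 13.4% and 15.6% of all genes.

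Glial genes named here differed in both directions. Olig2, a factor of oligodendrocyte precursors and of glial-competent progenitors, was at 11.68 and 11.28 against 11.37, 9.18 and 9.02, and rose 4.55-fold in P0C (limma adjusted p = 0.0152, 18-array model). Olig2 did not pass without the sorted or without the unsorted P0C GFP array. Cspg4 (NG2), a surface proteoglycan of oligodendrocyte precursors, was at 8.14 and 7.73 against 9.78, 9.54 and 9.36, at least 3.12-fold lower in each origin. Gfap, the astrocyte filament, was at 6.91 and 5.80 against 6.97, 8.24 and 7.81. Apoe, the lipid carrier of astrocytes, was at 10.35 and 8.85 against 8.99, 12.17 and 12.66, higher with N-myc in E16C (1.36) and lower in P0C (-3.56). Sox9, a factor of radial glia and astrocytes, was at 9.57 and 10.31 against 10.39, 11.57 and 11.33 (-1.01, SE 0.22). Of 19 stem cell and radial glia genes tested 4 lay above and 4 below, against 13.4% and 15.6% of all genes. The matching counts were 2 and 2 of 13 for astrocytes and 0 and 2 of 9 for oligodendrocyte precursors.

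Few of the neuronal genes tested ordered the groups, while the cerebellar lineage lists did so in more of their genes. Dcx (doublecortin), of migrating neurons, was at 6.45 and 6.35 against 7.43, 5.15 and 5.84. Gap43, a growth cone protein, was at 7.40 and 11.38 against 9.07, 9.83 and 9.54, so the N-myc cultures lay on both sides of GFP. Of 19 neuronal genes tested 1 lay above and 2 below, against the same 13.4% and 15.6%. The photoreceptor factor Crx, a marker of Group 3 medulloblastoma, was at 6.14 and 6.15 against 6.33, 6.38 and 6.71, near background in all. Otx2 was blank in both N-myc arrays and at most 6.44 with GFP, and Atoh1, the factor of granule precursors, was at most 6.98 where it was measured. Of 8 photoreceptor and Group 3 genes tested 1 lay above and 3 below, and of 17 hindbrain position genes 3 and 3. Of 9 granule precursor and granule neuron genes tested 2 lay above and 2 below. The shares of all genes are again 13.4% and 15.6%. Zic1, of granule precursors, was at 9.78 and 9.49 against 9.85, 9.48 and 9.72.

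Of 10 sonic hedgehog pathway genes tested, 3 lay above GFP and 1 below, against 13.4% and 15.6% of all genes. Those above were Cdon, given before, Gas1 and Smo. By origin, 9 of the 10 were higher with N-myc in E16C (median 0.435) and 4 in P0C (median -0.17). Gas1, another co-receptor, was at 10.35 and 10.03 against 10.00, 9.20 and 9.12. Smo, the signal transducer, was at 10.88 and 10.50 against 10.36, 10.20 and 10.27, and Boc, a further co-receptor, was at 8.50 and 8.10 against 7.50, 8.20 and 8.37, with the groups overlapping. Hhip, a target that binds and restrains the ligand, was at 8.06 and 7.86 against 8.59, 9.72 and 9.16, below in both origins. The targets Gli1 (6.92 and 6.46 against 6.31, 6.81 and 6.76) and Ptch1 (10.10 and 10.45 against 9.88, 10.78 and 10.41) did not order the groups. In the Notch pathway, where Lfng was 2-fold higher in both origins, the target Hes1 was at 8.76 and 8.05 against 8.95, 10.29 and 10.64 and Hes5 at 8.25 and 8.25 against 8.03, 9.20 and 9.20. Hey1, another target, was 1.74 higher in E16C and 1.87 lower in P0C. Of 17 Notch genes tested 2 lay above and 4 below, and of 17 BMP and TGF-beta genes 0 and 5, against the same shares of all genes. Of the Notch genes, 11 were higher with N-myc in E16C (median 0.51) and 4 in P0C (median -0.37). Tgfb1, the founding TGF-beta ligand, was at 6.68 and 6.55 against 8.17, 8.10 and 8.28, at -1.49 in E16C and -1.64 in P0C. WNT genes had 0 above and 2 below of 19. In E16C 13 of these 19 were higher with N-myc (median 0.15), and in P0C 3 were (median -0.33). Sfrp2, a secreted WNT modulator, was at 11.13 in the P0C N-myc culture and between 6.10 and 8.80 in the other 4.

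Matrix and metabolic genes varied by culture. Of 32 matrix and adhesion genes tested 1 lay above and 6 below, against 13.4% and 15.6% of all genes. In E16C 23 of the 32 were higher with N-myc (median 0.19), and in P0C 7 were (median -0.53). Fn1 (fibronectin) was at 9.90 and 9.45 against 10.10, 11.63 and 12.04. Thbs2, an adhesive matrix protein, was at 10.56 in the P0C N-myc culture and between 6.30 and 6.63 in the other 4. Of 20 glycolysis and hypoxia genes 4 lay above and 1 below. In E16C 17 of the 20 were higher with N-myc (median 0.34), and in P0C 6 were (median -0.37). Pfkl and Hk2, given next, were higher in P0C, unlike most of the list. Pfkl, the liver type of phosphofructokinase, was at 10.09 and 9.47 against 8.86, 8.18 and 8.27, with 2.36-fold in E16C and 2.37-fold in P0C. Hk2 (hexokinase 2) was at 8.75 and 8.97 against 8.36, 7.32 and 7.49. Sterol synthesis genes had a median of 0.03 in E16C and -0.999 in P0C. Insig1, which holds the sterol sensor back, fell by 1.67 in P0C (limma adjusted p = 0.0345, 18-array model) and differed by 0.13 in E16C. It did not pass in P0C without the sorted or without the unsorted P0C GFP array.

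The comparisons within an origin were tested in the 18 arrays of the transplant series with a mean for each group. Lone arrays were thus assumed to vary like the replicated groups. These were the orthotopic tumours and the sorted and unsorted P0C GFP pair, which may be of one culture. In E16C 0 genes (0%) rose and 1 (0.00859%) fell, with 301 at an unadjusted p under 0.05. The gene was Kcnv1, a silent potassium channel subunit, at 7.39 with N-myc and 10.39 with GFP. In P0C 506 genes (4.35%) rose and 465 (4%) fell. Without the sorted array the counts were 51 and 57, and without the unsorted one 24 and 27. The difference of the N-myc effect between P0C and E16C passed in 1 gene each way (0.00859%), out of 1624 at an unadjusted p under 0.05. Kcnv1 differed by 4.40 (SE 0.43, limma adjusted p = 0.0129), since its level was 8.85 with N-myc in P0C against 7.48 and 7.41. Ccl17, a chemokine, differed by -4.83 (SE 0.59, limma adjusted p = 0.049). It was at 8.40 with N-myc and 6.94 with GFP in E16C, and at 6.71 against 10.27 and 9.90 in P0C. Without either of the P0C GFP arrays neither gene passed. For the gene lists the contrast of origins described above is therefore one of values, and no list member passed the test of it.

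Sorted and unsorted P0C GFP cells were nearly alike. They differed at least 2-fold in 21 of 11628 genes measured in both (0.181%), 9 higher in the sorted cells and 12 in the unsorted. Chrdl1, a secreted BMP antagonist, was at 9.91 in sorted and 8.71 in unsorted cells. Gria3, given above, was at 9.54 and 8.47. The median size of the difference was 0.16, against 0.23 between N-myc and GFP in E16C and 0.49 in P0C. Each pair of single arrays holds no replicate, so these sizes have no test.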

How the data were processed

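Total RNA (Trizol, then a column) was labelled by one protocol for the transplant series, per the labels, then hybridised to Affymetrix whole-transcript arrays. Deposited levels are on a log2 scale, computed with RMA, and mm9 is the build named, both per the submitters' processing notes. The deposited table leaves some probes blank in an array (689 to 2127 of 17831 here), for a reason that no source here states. Array medians ran from 8.00 to 8.25. Precision is limited by how few arrays there are.

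Groups follow titles and source names, because the cell type tags of 3 E16 arrays are out of step with both. Probes with one gene symbol (15620) were kept, 1370 with several and 841 with none were left out, and the brightest probe stood for each of 375 genes with several. A gene was tested if above 6.30 in at least 2 arrays and measured in both N-myc arrays and a GFP array of each origin, and 352 genes above that level were left out for blanks. limma 3.58.1 in R 4.3.3 fitted arm and origin to the 5 arrays, with Benjamini-Hochberg adjustment. Differences within an origin, and between origins, came from a model of 18 arrays with a mean for each group. The models were tested on simulated data with noise drawn independently for each array. Such data cannot show what happens if the sorted and unsorted arrays are of one culture. The 35 lists hold 623 genes, 495 of them tested. The members and lists were chosen with earlier results of these data known.

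Named genes were the 10 largest differences each way without overlap, the genes passing the test between origins, and a list of 31 fixed genes, not all of which are reported here. List members beyond these were chosen after their values were seen. Alternatives were no filter, a stricter one (percentile 50, 8.00), the mean of probes, quantile normalization, centred arrays, trend and robust moderation, no origin term, averaged P0C GFP arrays, 18-array models, filled blanks and leaving out each array. Leaving out both P0C GFP arrays, and counting P0C calls of each list without one of them, were added after seeing the data.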

Additional observations from a re-analysis of the deposited data

Results flagged for a closer look

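Kcnv1, the silent potassium channel subunit, passed the test of the difference between origins: the N-myc effect in P0C minus that in E16C was 4.40 (limma adjusted p = 0.0129). The E16C GFP array, at 10.39, stood above the other 4 arrays, which lay between 7.39 and 8.85.

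Ccl17, a chemokine, passed the same test in the other direction, with a difference of -4.83 (limma adjusted p = 0.0493). Its levels were 10.27 and 9.90 in the P0C GFP arrays, 8.40 in the E16C N-myc array and under 7 in the remaining arrays. Both results are of lone arrays in E16C and P0C N-myc cultures, and both were lost without the sorted or without the unsorted P0C GFP array.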

How the results depend on the processing

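Over both origins, genes higher and lower with N-myc numbered 0 and 0 with no filter, a stricter filter, the mean of probes, quantile normalization, centred arrays, trend and robust moderation, no origin term or filled blanks, where the smallest limma adjusted p ran from 0.0547 to 0.123. They were 11 and 8 with the P0C GFP arrays averaged, 1 and 0 in the additive 18-array model, 8 and 11 in the 18-array model with a mean per group, and 23 and 13 without both P0C GFP arrays, where the control is 1 array and the spread is that of N-myc arrays of different origins, so that these calls support no result. Leaving out each array gave 1 to 2755 higher and 1 to 2852 lower. The high ends came without the E16C N-myc or the E16C GFP array, when the other E16C array is taken up by the origin term and the spread is that of the sorted and unsorted pair. Mycn passed with the P0C GFP arrays averaged and in both 18-array models. Lists with a median above 0 numbered 13, then 21 without both P0C GFP arrays and 11 to 24 when leaving out each array. Genes at least 2-fold higher in E16C were 319 with quantile normalization and 415 with filled blanks, against 212. The single E16C call was lost (0) with quantile normalization and with centred arrays. Calls in P0C were 24 to 51 higher and 27 to 57 lower without the sorted or the unsorted array. Calls lower for the difference between origins were 2 with quantile normalization, 4 with centred arrays and 0 with no filter, and 0 each way without the sorted or the unsorted array. Sorted and unsorted cells differed 2-fold in 9 genes under the stricter filter. Beyond the constructions named, the cause was not tested.

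Of 49 named genes tested, 34 kept their direction under every alternative and 15 did not. Ptch1 turned to -0.000617 with quantile normalization, -0.00459 with centred arrays, -0.085 without the origin term and -0.17 in the additive 18-array model. Dcx turned to -0.061 with the P0C GFP arrays averaged and in the model with a mean per group, and to -0.12 in the additive model. In the additive model Mki67 was -0.14, Sox2 0.19 and Gli1 -0.21. Without both P0C GFP arrays Ccl17 was 0.62, Ncl -0.004, Npm1 -0.18, Nolc1 -0.22, Ccnd1 -0.22, Cdkn2a -0.49, Mki67 -0.33, Top2a -0.42, Dcx -1.03 and Hes5 0.22. Leaving out each array moved Kcnv1 from -2.998 to 1.40, Ccl17 from -3.37 to 1.46, Sox2 from -0.18 to 0.07, Gli1 from -0.32 to 0.61, Ptch1 from -0.15 to 0.22, Ncl from -0.22 to 1.13 and Npm1 from -0.46 to 0.69. It moved Nolc1 from -0.092 to 0.55, Cdk4 from -0.034 to 0.985, Ccnd1 from -0.37 to 1.12, Cdkn2a from -0.30 to 0.92, Mki67 from -0.25 to 0.42, Top2a from -0.53 to 0.57, Dcx from -0.98 to 0.86 and Hes5 from -0.95 to 0.22. By replicate number, no paired analysis was possible because the labels give these arrays none. Origin stands as a term in the model, and the fit with the P0C GFP arrays averaged, given above, pairs one N-myc with one GFP value in each origin. Levels near 6.30 limit what a difference against background can show.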
